A study of Danio rerio with 20 samples.

Results

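Skin of 1-year-old male zebrafish that had been exercised in a swim tunnel was compared with skin of 1-year-old males that had not. The 10 libraries of this comparison, 5 of exercised and 5 of unexercised fish, were taken by their labels from a series of 20. The other 10 libraries come from 3-year-old males, again 5 exercised and 5 not, and are set beside the 1-year result below. All fish are labelled strain AB JxTu, and no label names a transgene, a mutation or a drug. A swim tunnel is a chamber in which a fish holds its place against a current. The sources used here do not give the speed, the hours and the number of days swum, when in the day fish were sampled, or the part of the body that was skinned. The labels do not say whether a library holds skin of 1 fish or of several, so the p-values measure the spread between these libraries, which may in part be technical.

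Fish skin is a living tissue to its surface. Basal keratinocytes divide, stand on a basement membrane and are held to it by hemidesmosomes, in which an integrin pair, a transmembrane collagen and a laminin join the cell to the matrix. The layers above are tied to each other by desmosomes, built from desmosomal cadherins and the plakin proteins that link them to keratin filaments. Below lies a dermis of dense collagen that carries bony scales, made by osteoblasts under the control of Eda, Hedgehog, Fgf, Wnt and BMP signals. Zebrafish tissues also hold circadian clocks of their own that light can set.

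Total counts ran from 29633656 to 52437698 in exercised and from 31272180 to 43187976 in unexercised libraries. The top 100 genes of a library held 39.2 ± 0.828% of its counts in exercised and 35.9 ± 0.874% in unexercised fish (SD, n = 5 each; two-sided exact permutation p = 0.00794, the smallest that the 252 ways of splitting 10 libraries allow). Counts were scaled by TMM, with factors of 0.81 to 0.948 in exercised and 0.976 to 1.097 in unexercised libraries, and levels are in CPM, counts brought to a common scaled library total. On the first principal component of the 1-year libraries, which held 35.9% of the variance of the 1000 most variable genes, exercised libraries lay at 6 to 42.7. Unexercised replicates 1 to 4 lay at -30.4 to -27.6 and unexercised replicate 5 at -9.9, between them and the exercised libraries. The skin keratin krt5 measured 46533, 54349, 59337, 64244 and 46687 CPM in exercised fish, against 42812, 53235, 51106, 51834 and 42528 CPM in unexercised fish, in replicate order as in all such lists below. The collagen chain col1a1a measured 2030, 2095, 4654, 3026 and 3467 CPM in exercised fish, against 2033, 1953, 1143, 1954 and 1919 CPM in unexercised fish. Unexercised replicate 1, whose count column is named muscle although its label says skin, thus held skin transcripts within the range of the other 9 libraries, and its 1249 CPM of the muscle creatine kinase ckma lay inside the 692 to 2127 CPM of those libraries.

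Skin of exercised fish differed from that of unexercised fish in a large part of the transcriptome at 1 year. Of 20788 genes tested, 3227 had an adjusted p below 0.05 (15.5%) in edgeR's quasi-likelihood test, adjusted over all of them by the Benjamini-Hochberg method, and are said to be called. Of these 1532 were higher (7.37% of genes tested) and 1695 lower (8.15%). All adjusted p-values of single genes below are from that test, and a gene is said to rise or fall only where it passed. Among called genes, 640 rose and 464 fell by more than 2-fold, and 221 rose and 37 fell by more than 4-fold. The 5 exercised libraries lay wholly above the 5 unexercised ones in 1203 genes (5.79%) and wholly below in 1464 (7.04%). Plain library totals in place of TMM moved the median over all genes to -0.21 on the log2 scale, against 0.01 with TMM, and gave 800 genes higher and 3666 lower. Values near zero are therefore read relative to that shift. Skin is a mixture of cells, and in such bulk samples fewer cells of a type and less RNA per cell cannot be told apart.

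The called genes did not move alike in all libraries. Exercised replicate 4 was the highest exercised library in 55.5% of the 1532 genes that rose and the lowest in 52.6% of the 1695 that fell. Exercised replicate 2 was the lowest in another 38.1% of the genes that fell. Among unexercised libraries, replicate 5 was the highest in 49.6% of the genes that rose and the lowest in 47.8% of the genes that fell, the side nearest to the exercised fish in both cases. Without exercised replicate 2 or 4 the count of called genes was 1909 or 2016, and without unexercised replicate 1 it was 2109. It was 1270 with only exercised replicates 4 and 5 kept, and 154 with 6 surrogate variables, estimated from log2 CPM, as covariates. Those 6 covariates leave fewer residual degrees of freedom and can take up part of the difference between groups. Exercised replicates 1, 2 and 3 were left out together because they were high in liver-type transcripts, described below. Fewer genes can pass in that fit for lack of libraries alone. That fit also keeps exercised replicate 4, the library most often highest or lowest of its group. Calls that held there, in this and later paragraphs, are thus in part favoured by the choice of libraries. Counts of a list under such fits, given below, are to be read beside these counts over all genes, which were lower as well.

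Several genes that anchor basal keratinocytes to the basement membrane rose. lamb3, a chain of the laminin to which hemidesmosomes bind, measured 719.7, 1021, 763, 1017 and 529.7 CPM in exercised fish, against 110.3, 149, 238, 223 and 465 CPM in unexercised fish. The groups did not overlap, but unexercised replicate 5, the highest of its group, came close to exercised replicate 5, the lowest of its own. The log2 fold change was 1.77 (SE 0.39, edgeR adjusted p = 0.00603).

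The hemidesmosome integrin is made of an alpha and a beta subunit. The alpha subunit gene itga6b measured 2945, 4098, 4056, 6601 and 3759 CPM in exercised fish, against 792, 1004, 1055, 904 and 2126 CPM in unexercised fish, and rose by 1.87 (SE 0.32, edgeR adjusted p = 0.00143). The beta subunit gene ITGB4 measured 2809, 4774, 3586, 6988 and 3433 CPM in exercised fish, against 1062, 1163, 1111, 1055 and 1884 CPM in unexercised fish, and rose by 1.78 (SE 0.32, edgeR adjusted p = 0.00193). In both, unexercised replicate 5 stood above the other unexercised libraries and exercised replicate 4 above the other exercised ones, with no overlap. col17a1b, the transmembrane collagen of the hemidesmosome, measured 1298, 1826, 1767, 3483 and 1508 CPM in exercised fish, against 370.2, 785, 1016, 775 and 987 CPM in unexercised fish, again with exercised replicate 4 highest, and rose by 1.33 (SE 0.28, edgeR adjusted p = 0.00453). TP63, the transcription factor that maintains basal keratinocytes, measured 688, 866, 853, 1205 and 735 CPM in exercised fish, against 376, 342, 316, 298 and 456 CPM in unexercised fish, with a gap between the groups, and rose by 1.28 (SE 0.19, edgeR adjusted p = 0.000743).

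Of 25 genes in the basal keratinocyte list 24 passed the filter on low counts, all but the laminin gene lama3. Of these 9 rose, against 7.37% of all genes, among them also plecb, which ties the hemidesmosome to keratin, by 1.12 (SE 0.28). None of the list fell, while 15 were not called. Of the 24 log2 fold changes 16 were positive and 8 negative, the lowest -0.64. The median log2 fold change was 0.42, against 0.01 over all genes. The score of the list, the mean log2 of CPM plus 1 over its members, was 7.02 to 7.3 in exercised and 6.41 to 6.7 in unexercised libraries. With only exercised replicates 4 and 5 kept, 7 of the genes rose.

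Genes of the desmosome rose as well. DSP (ENSDARG00000022309), desmoplakin, measured 3168, 6419, 3971, 9887 and 4071 CPM in exercised fish, against 970, 1637, 1086, 1023 and 1733 CPM in unexercised fish, and rose by 2.09 (SE 0.30, edgeR adjusted p = 0.00068). Exercised replicates 2 and 4 stood highest, and the lowest exercised library was above every unexercised one. Another gene of that symbol, DSP (ENSDARG00000076673), had a log2 fold change of -0.33 (SE 0.11, edgeR adjusted p = 0.0418), with overlapping groups. That call was lost in 6 of 20 fits that each left out a library, those without unexercised replicate 1, 2 or 3, exercised replicate 2 or 4, or a 3-year library.

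Desmosomal cadherins and a partner protein were among the genes that rose. The desmoglein dsg2.1 measured 3367, 5702, 3418, 7606 and 3374 CPM in exercised fish, against 918, 1415, 1342, 1210 and 1870 CPM in unexercised fish, a rise of 1.8 (SE 0.29, edgeR adjusted p = 0.00112). The desmocollin dsc2l measured 1645, 2925, 1687, 3760 and 1394 CPM in exercised fish, against 261, 304, 437, 339 and 822 CPM in unexercised fish, a rise of 2.4 (SE 0.41, edgeR adjusted p = 0.0014). PERP, a membrane protein of desmosomes, measured 2470, 4185, 2373, 5886 and 2523 CPM in exercised fish, against 820.5, 1132, 1133, 1071 and 1507 CPM in unexercised fish, a rise of 1.62 (SE 0.26, edgeR adjusted p = 0.000941). In each of these genes exercised replicates 4 and 2 were the highest of all libraries and the groups did not overlap.

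The envelope-forming genes of the outer layers followed. The transglutaminase tgm5l, of a family that crosslinks envelope proteins, measured 54.6, 256, 41, 226 and 34.7 CPM in exercised fish, against 3.98, 6.89, 5.74, 9.91 and 17.8 CPM in unexercised fish, and its rise of 3.78 (SE 0.68, edgeR adjusted p = 0.00186) was the largest of the list. Exercised replicates 2 and 4 held several times the level of exercised replicates 1, 3 and 5, which in turn stood above unexercised replicate 5, the highest of its group. The envelope plakins PPL and evpla rose by 1.69 (SE 0.29) and 2.2 (SE 0.40), and the plakophilin pkp3a by 1.38 (SE 0.23). GRHL2, a grainyhead transcription factor of epithelia, measured 21.1 ± 4.52 CPM in exercised and 11.8 ± 1.27 CPM in unexercised fish (SD, n = 5 each), with no overlap, and rose by 0.83 (SE 0.14, edgeR adjusted p = 0.00106).

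Of 37 genes in the superficial keratinocyte and desmosome list 35 passed the filter, with a median of 0.52. Of these 14 rose and 2 fell, against 7.37% and 8.15% of all genes. The other desmoplakin gene and pkp1a, another plakophilin, which fell by 0.59 (SE 0.15), were the 2. With only exercised replicates 4 and 5 kept, 11 rose and 0 fell. Scores were 6.77 to 7.41 in exercised and 6 to 6.63 in unexercised libraries.

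**Figure D1:**
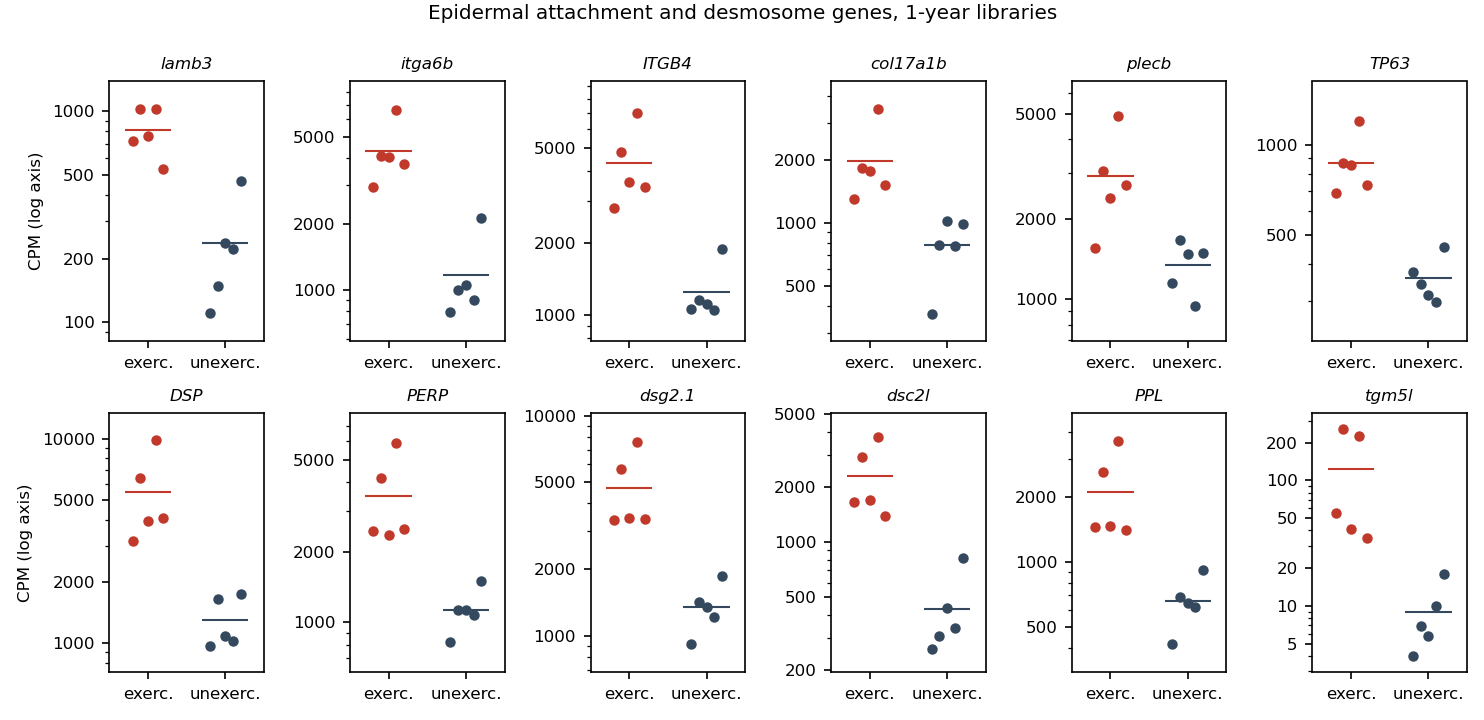
CPM of 12 epidermal genes in each 1-year library on a log axis, exercised libraries (red) left of unexercised ones (dark), in replicate order within a group, with lines at the group means. The upper row holds genes of the basal keratinocyte list and the lower row genes of desmosomes and the outer layers. In all panels but that of plecb, where exercised replicate 1 lies within the unexercised range, the exercised libraries lie above the unexercised ones, and exercised replicate 4 is the highest in all but tgm5l and lamb3, where exercised replicate 2 is.

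Most keratin and tight junction genes were not called. Of 20 keratin genes tested 2 rose, against 7.37% of all genes. They were krt97 by 0.78 (SE 0.23) and krt18a.1 by 0.51 (SE 0.17), and 18 were not called. Without exercised replicate 2 or 4, or unexercised replicate 1, 2 or 4, none of the 20 was. krt4, a keratin of the outer layers, had a log2 fold change of 0.52 (SE 0.18, edgeR adjusted p = 0.0546) and krt5 one of 0.17 (SE 0.12, edgeR adjusted p = 0.396). By DESeq2, with a stricter filter on low counts or with the 1-year libraries fitted alone, krt4 did pass. Of 42 claudin and tight junction genes 6 rose and none fell, against 7.37% and 8.15% of all genes, and 1 rose without exercised replicate 4. With plain library totals 3 rose and 2 fell. oclnb, an occludin, measured 277, 388, 224, 375 and 193 CPM in exercised fish, against 91, 141, 138, 165 and 159 CPM in unexercised fish, without overlap, and rose by 1.07 (SE 0.29, edgeR adjusted p = 0.0183), a call lost without unexercised replicate 1 or exercised replicate 2 or 4. The claudin cldn7a measured 70.8, 110, 101, 143 and 117 CPM in exercised fish, against 59.3, 39.4, 62, 44.2 and 74.8 CPM in unexercised fish, with 1 unexercised library, replicate 5, above the lowest exercised one. Its rise of 0.95 (SE 0.25, edgeR adjusted p = 0.0163) was lost without exercised replicate 4 (adjusted p = 0.0503). Reads shared by near-identical keratin copies may not have been assigned to the right one by the authors' counting, which was not tested.

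In the dermis some enzymes that modify collagen rose, while most collagen chains were not called. P4HA1, a catalytic subunit of the enzyme that hydroxylates collagen prolines, measured 26.5, 42, 52.9, 41.9 and 59.6 CPM in exercised fish, against 16.7, 15.9, 10.7, 14.2 and 16.6 CPM in unexercised fish, and the groups stood well apart, with a rise of 1.59 (SE 0.25, edgeR adjusted p = 0.000973). LOX, which crosslinks collagen, measured 34.2, 48.9, 38.4, 61.6 and 58.8 CPM in exercised fish, against 14.4, 15.8, 14.4, 15.2 and 32.2 CPM in unexercised fish, with unexercised replicate 5 at about the level of the lowest exercised library but below it, and rose by 1.39 (SE 0.32, edgeR adjusted p = 0.00796). Its relatives LOXL2 and loxl2a rose by 0.83 (SE 0.17) and 2.27 (SE 0.47). loxl2a measured 69.8, 109.9, 97.3, 126 and 79.1 CPM in exercised fish, against 9.89, 12.7, 19.3, 8.63 and 49.6 CPM in unexercised fish, again with unexercised replicate 5 far above its group.

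Of 38 genes of collagen hydroxylation, folding and crosslinking 7 rose and 3 fell, against 7.37% and 8.15% of all genes. The 3 were COLGALT1 (ENSDARG00000058270), which adds galactose to collagen, by 0.86 (SE 0.20), and the prolyl hydroxylases P3H2 and P3H1 by 0.81 (SE 0.23) and 0.67 (SE 0.20), calls that were both lost without unexercised replicate 2 or exercised replicate 2 or 4, and for P3H1 also without unexercised replicate 1 and for P3H2 without unexercised replicate 4. With only exercised replicates 4 and 5 kept, 6 rose and 0 fell. Of 38 dermal collagen and proteoglycan genes 4 rose, against the same 7.37% of all genes. They were the small proteoglycans OGN (ENSDARG00000031489), BGN (ENSDARG00000017884) and LUM and the collagen COL10A1 (ENSDARG00000054753). With only exercised replicates 4 and 5 kept, 0 of the 38 rose. The median of that list was 0.36, and 33 of its 38 genes had a positive log2 fold change, among them col1a1a at 0.76 (SE 0.31, edgeR adjusted p = 0.101) and COL1A1 at 0.88 (SE 0.33, edgeR adjusted p = 0.0819), which were not called. Both passed with the 1-year libraries fitted alone, and COL1A1 also by DESeq2. In 8 of the 38 genes every exercised library lay above every unexercised one, against 5.79% of all genes. Each of the 4 calls was lost in at least 6 of the 20 fits that left out a library. In the 10 fits that each left out a 1-year library, 0 to 5 genes of the list rose, with 0 without unexercised replicate 4 or exercised replicate 4.

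Of 32 genes of matricellular proteins, which sit in the matrix and act on cells, 5 rose and none fell, against 7.37% and 8.15% of all genes. THBS1 (ENSDARG00000010785), a thrombospondin, measured 224, 311, 383, 478 and 232 CPM in exercised fish, against 121, 109, 144, 121 and 187 CPM in unexercised fish, and THBS1 (ENSDARG00000103775) 134, 157, 145, 122 and 148 CPM in exercised fish, against 65.1, 68.5, 96.9, 71.5 and 91.3 CPM in unexercised fish. Neither overlapped between groups, and they rose by 1.25 (SE 0.26) and 0.85 (SE 0.17). The other 3 were FN1 (ENSDARG00000006526), POSTN (ENSDARG00000104267) and SPARC, by 0.64, 0.64 and 0.85. Without unexercised replicate 4 or exercised replicate 4, 2 genes of the list rose. FN1 and SPARC also lost their calls without unexercised replicate 1 or exercised replicate 2 or 3, FN1 without unexercised replicate 2, SPARC and POSTN without unexercised replicate 3 or exercised replicate 5.

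Some genes of scale bone rose and a receptor of scale formation fell. Osteocalcin, bglap, a matrix protein made by osteoblasts, measured 4.07, 4.99, 13.9, 5.38 and 11.3 CPM in exercised fish, against 1.6, 2.72, 2.15, 3.59 and 2.32 CPM in unexercised fish, highest in exercised replicates 3 and 5, and rose by 1.68 (SE 0.36, edgeR adjusted p = 0.0053). scpp1, of the secretory calcium-binding phosphoproteins of mineralised tissue, measured 16.2, 12.3, 15.7, 13.5 and 15 CPM in exercised fish, against 3.74, 6.98, 3.95, 6.35 and 6.83 CPM in unexercised fish, with a wide gap between the groups, and rose by 1.38 (SE 0.34, edgeR adjusted p = 0.0108). PHEX, a regulator of mineralisation, rose by 0.82 (SE 0.18). Of 39 genes of scale osteoblasts and mineralisation 7 rose and 1 fell, against 7.37% and 8.15% of all genes, and 2 rose with only exercised replicates 4 and 5. Without unexercised replicate 1 or 4, 3 rose.

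The gene of that list that fell was EDAR, the receptor for the Eda signal that zebrafish need to form scales. EDAR measured 3.69, 3, 3.19, 3.89 and 5.27 CPM in exercised fish, against 8.56, 9.27, 12.8, 11.7 and 6.4 CPM in unexercised fish, with exercised replicate 5 nearest to unexercised replicate 5 and no overlap, and fell by 1.36 (SE 0.23, edgeR adjusted p = 0.0014). PTCH1, the Hedgehog receptor and itself a Hedgehog target, measured 9.12, 5.04, 11.3, 7.46 and 17.6 CPM in exercised fish, against 30.2, 26.7, 30.6, 27.09 and 20.1 CPM in unexercised fish, and fell by 1.42 (SE 0.27, edgeR adjusted p = 0.0022). Of 64 genes of Wnt, Hedgehog, Fgf and Eda signalling 1 rose and 7 fell, against 7.37% and 8.15% of all genes. Those that fell include the Hedgehog transcription factors GLI1 and GLI2 (ENSDARG00000025641), by 1.02 (SE 0.29) and 0.88 (SE 0.23), and the ligand WNT10A, by 1.2 (SE 0.34), a call lost without unexercised replicate 1 or 2 or exercised replicate 2. The GLI1 call was lost without unexercised replicate 1 or exercised replicate 2 or 4. Without exercised replicate 2, 4 genes of the list fell, and with plain library totals 15 did. LEF1, a transcription factor of the Wnt pathway, was the member that rose, and measured 24.2, 27.7, 31.9, 50.8 and 25.2 CPM in exercised fish, against 14.7, 12.3, 11.3, 18.2 and 18.2 CPM in unexercised fish, higher in every exercised library.

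BMP and TGF-beta genes moved in both directions. bmp7a measured 0.889, 0.471, 1.07, 0.891 and 1.1 CPM in exercised fish, against 5.88, 2.25, 6.78, 3.81 and 2.16 CPM in unexercised fish, with every exercised library below every unexercised one, and fell by 2.24 (SE 0.34, edgeR adjusted p = 0.000874). The receptor BMPR2 (ENSDARG00000011941) measured 23.6, 42, 24, 66.7 and 27.21 CPM in exercised fish, against 11.7, 13.4, 12.4, 9.32 and 14.4 CPM in unexercised fish, with exercised replicates 2 and 4 highest, and rose by 1.58 (SE 0.30, edgeR adjusted p = 0.00226). SMAD3 (ENSDARG00000010207), which carries TGF-beta signals to the nucleus, measured 20.8, 25.7, 19.2, 36.1 and 17.2 CPM in exercised fish, against 10.5, 8.8, 8.88, 7.29 and 12.1 CPM in unexercised fish, and rose by 1.32 (SE 0.20, edgeR adjusted p = 0.000784), while SMAD3 (ENSDARG00000036096), a gene of the same symbol, had a log2 fold change of 0.01 (SE 0.14). Of 66 genes in the list 12 rose and 4 fell, against 7.37% and 8.15% of all genes. With plain library totals 6 rose and 9 fell while the median of the list turned from 0.10 to -0.11.

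Many genes of the DNA replication list fell. MCM2, a subunit of the replicative helicase, measured 19.4, 11.09, 22, 9.04 and 15.3 CPM in exercised fish, against 83.4, 61.7, 38.8, 62 and 52.3 CPM in unexercised fish, and the highest exercised library, replicate 3, stood well below the lowest unexercised one, also replicate 3. It fell by 1.96 (SE 0.34, edgeR adjusted p = 0.00141). ORC1, of the complex that marks replication origins, measured 3.13, 1.54, 2.41, 1.16 and 2.31 CPM in exercised fish, against 9.8, 7.32, 8.46, 6.14 and 8.21 CPM in unexercised fish, and fell by 1.92 (SE 0.35, edgeR adjusted p = 0.002). CDCA7, which acts with a chromatin remodeller to maintain DNA methylation, measured 5.16, 2.65, 4.38, 1.29 and 4.63 CPM in exercised fish, against 30.9, 30.9, 16.1, 19 and 16.4 CPM in unexercised fish, and fell by 2.64 (SE 0.43, edgeR adjusted p = 0.00116).

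In all 3 genes exercised replicates 2 and 4 were the lowest libraries of all. UHRF1, which recruits the maintenance methyltransferase to new DNA, measured 9.76, 4.91, 10, 5.41 and 9.01 CPM in exercised fish, against 32.9, 35.6, 21.8, 23.7 and 22.4 CPM in unexercised fish, and fell by 1.8 (SE 0.32, edgeR adjusted p = 0.00181). DNMT3B, a de novo DNA methyltransferase, measured 8.72, 3.1, 6.87, 2.18 and 10.7 CPM in exercised fish, against 31.4, 30.1, 30.4, 30.9 and 22.8 CPM in unexercised fish, and fell by 2.21 (SE 0.33, edgeR adjusted p = 0.000769). In DNMT3B unexercised replicate 5 was the lowest of its group and still stood well above the highest exercised library. PARP1, a sensor of DNA breaks, was more even, at 14.2, 12.1, 14.4, 11.7 and 13.7 CPM in exercised fish, against 51.3, 34.6, 28.8, 33.2 and 32.8 CPM in unexercised fish, and fell by 1.45 (SE 0.22, edgeR adjusted p = 0.000763).

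Of 66 genes in the DNA replication list 65 passed the filter. The list was chosen with earlier results of these data known and takes in more than the replication machinery, such as CDCA7. Of the 65 none rose, 39 fell and 26 were not called, against 8.15% of all genes that fell. The median log2 fold change was -0.86, and 62 of the 65 values were negative. In 48 of the 65 genes every exercised library lay below every unexercised one, against 7.04% of all genes. PCNA, the sliding clamp of the polymerases, was such a gene at 98.3, 70.4, 107, 81.3 and 100.5 CPM in exercised fish, against 150.1, 162, 119.8, 121 and 132 CPM in unexercised fish, but its log2 fold change of -0.58 (SE 0.26, edgeR adjusted p = 0.14) did not pass. With plain library totals or with the 1-year libraries fitted alone PCNA did pass. The count of genes that fell was 25 without exercised replicate 2, 25 without exercised replicate 4, 23 with the hepatocyte score as a covariate, 21 without unexercised replicates 1 and 5, and 14 with only exercised replicates 4 and 5. Over all genes these fits gave, in that order, 1012 of 20959, 1071 of 21122, 961 of 20788, 1139 of 21344 and 654 of 21638 lower. The hepatocyte score did not overlap between the 1-year groups, so as a covariate it can take up part of their difference.

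Mitosis genes had the same sign but mostly did not pass. Of 59 tested none rose and 2 fell, the checkpoint gene BUB3 by 0.70 (SE 0.17, edgeR adjusted p = 0.0108) and the lamin LMNB1 by 0.59 (SE 0.15, edgeR adjusted p = 0.0137), a smaller share than the 8.15% of all genes that fell. The median of the list was -0.48, with 55 of the 59 values negative. In 11 genes the exercised libraries all lay below the unexercised ones, against 7.04% of all genes. When the 10 libraries of 1-year fish were fitted alone, 15 mitosis genes fell and 1 rose. Over all genes that fit gave 1866 of 19593 lower and 1642 higher, so the share of mitosis genes that fell was there above that of all genes. RBL2, a retinoblastoma-family repressor of cell cycle genes, is not in the mitosis list. RBL2 measured 7.34, 6.72, 6.19, 5.02 and 6.91 CPM in exercised fish, against 22.8, 19.4, 25.6, 19.1 and 12.1 CPM in unexercised fish, with no overlap, and fell by 1.62 (SE 0.20, edgeR adjusted p = 0.000475).

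Chromatin modifiers fell more often than they rose. Of 79 histone methylases, demethylases and deacetylases tested 9 rose and 20 fell, while all genes split 7.37% and 8.15%. kdm6bb, a histone demethylase, measured 10.6, 9.75, 9.91, 10.3 and 13 CPM in exercised fish, against 27.36, 30.8, 22, 18.3 and 16.6 CPM in unexercised fish, and fell by 1.1 (SE 0.14, edgeR adjusted p = 0.000577), among the lowest p-values of all genes. The histone methyltransferases setdb1a and ehmt1a fell by 0.76 (SE 0.12) and 1.02 (SE 0.17), both without overlap. JARID2 (ENSDARG00000062268), a partner of the Polycomb complex, measured 6, 11.2, 6.19, 9.37 and 4.92 CPM in exercised fish, against 2.95, 2.56, 4, 2.2 and 2.11 CPM in unexercised fish, and rose by 1.45 (SE 0.24, edgeR adjusted p = 0.00116). Without exercised replicate 2, 16 genes of the list were called in either direction, and 18 without exercised replicate 4. With plain library totals 1 rose and 31 fell.

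Antiviral genes that interferon induces fell in part of the list. RSAD2, the antiviral enzyme viperin, measured 21.3, 7.67, 11.9, 7.06 and 15.2 CPM in exercised fish, against 23.9, 63.7, 84.1, 111 and 55.5 CPM in unexercised fish. The groups did not overlap, but unexercised replicate 1, the lowest of its group, came within a few CPM of exercised replicate 1. The fall of 2.42 (SE 0.65, edgeR adjusted p = 0.0168) was lost without exercised replicate 2 or 4 (highest adjusted p = 0.0514). ifit10, of a family that binds viral RNA, measured 2.69, 1.81, 2.73, 2.11 and 4.31 CPM in exercised fish, against 8.04, 22.5, 25.1, 28.3 and 9.58 CPM in unexercised fish, with unexercised replicates 1 and 5 the lowest of their group, and fell by 2.78 (SE 0.71, edgeR adjusted p = 0.014). The viral RNA sensor DHX58 measured 49.5, 29.3, 39.2, 27.9 and 43.5 CPM in exercised fish, against 65, 135, 221, 213 and 93.6 CPM in unexercised fish, again with unexercised replicates 1 and 5 lowest, and fell by 1.94 (SE 0.49, edgeR adjusted p = 0.0122).

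Values of irf9 and adar spread less between libraries. irf9, which carries the interferon signal to the nucleus, averaged 30.7 ± 8.34 CPM in exercised and 60.8 ± 11 CPM in unexercised fish (SD, n = 5 each), with no overlap, and fell by 0.99 (SE 0.24, edgeR adjusted p = 0.0101). adar, which edits double-stranded RNA, measured 40.8, 31.9, 46.2, 35.5 and 43 CPM in exercised fish, against 69, 74.5, 93, 79.3 and 66.1 CPM in unexercised fish, and fell by 0.95 (SE 0.14, edgeR adjusted p = 0.000855). Of 82 genes in the interferon list 77 passed the filter, none rose and 18 fell, against 8.15% of all genes that fell. The median was -0.62 with 69 negative values, and the exercised libraries lay wholly below in 23 genes, against 7.04% of all genes. The count that fell was 11 without exercised replicate 4, 7 with the hepatocyte score as a covariate and 1 with only exercised replicates 4 and 5, at the same median of -0.62. Over all genes these fits gave, in that order, 1071 of 21122, 961 of 20788 and 654 of 21638 lower, against 1695 of 20788 in the main fit. Reads shared by the closely related ifit and gig2 copies may not have been assigned to the right one, which was not tested.

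**Figure D2:**
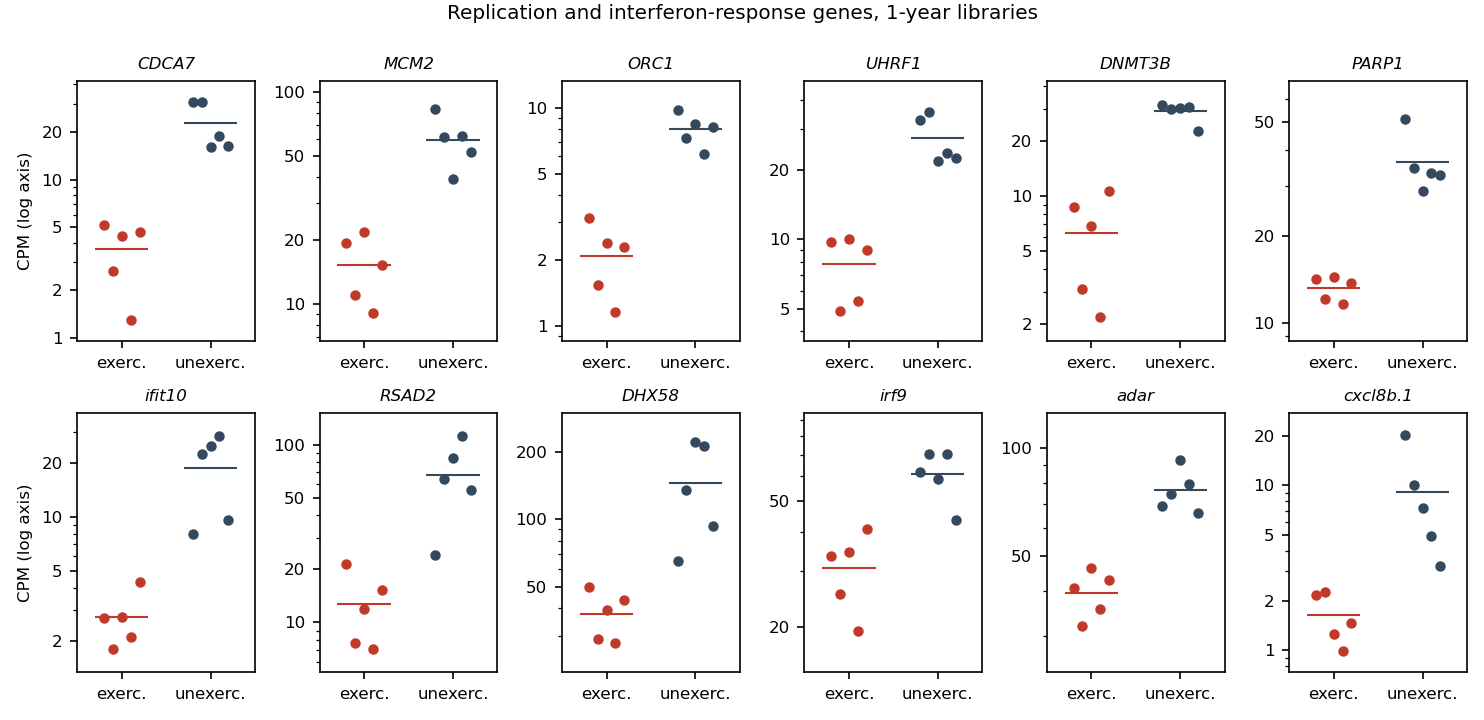
CPM of 12 genes in each 1-year library on a log axis, exercised libraries (red) left of unexercised ones (dark), in replicate order within a group, with lines at the group means. The upper row holds genes of DNA replication and DNA methylation with PARP1, and the lower row interferon-response genes with the chemokine cxcl8b.1. In all 12 panels the exercised libraries lie below the unexercised ones.

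Few markers of macrophages and neutrophils were called. Of 37 macrophage and antigen presentation genes 0 rose and 1 fell, against 7.37% and 8.15% of all genes. The gene that fell was MPEG1 (ENSDARG00000043093), a pore-forming protein of macrophages, by 0.88 (SE 0.27, edgeR adjusted p = 0.0317). That call was lost without unexercised replicate 2, 3 or 4 or exercised replicate 2, 3 or 4 (highest adjusted p = 0.0946), and the other two genes of that symbol, MPEG1 (ENSDARG00000078569) and MPEG1 (ENSDARG00000055290), were not called, at -0.84 (SE 1.49) and -0.23 (SE 0.28). Scores of the macrophage list were 3.87 to 4.19 in exercised and 3.82 to 4.27 in unexercised libraries. None of 18 neutrophil genes was called by edgeR, against 15.5% of all genes, with 2 under an unadjusted p of 0.05. By limma voom 0 and by DESeq2 2 of them were called. Their scores were 3.25 to 3.82 in exercised and 3.05 to 3.54 in unexercised libraries. Of 40 genes of T and NK cells 3 fell and none rose: the transcription factors bcl11ba by 1.70 (SE 0.30), rorca by 1.36 (SE 0.24) and RUNX3 by 0.83 (SE 0.28), a share near the 8.15% of all genes. The RUNX3 call was lost in 14 of 20 fits that each left out a library. Of 77 genes of B cells and plasma cells 31 passed the filter, and 3 rose and 2 fell, close to the 15.5% of all genes that were called. Those that rose were the B cell receptor regulator cd22 by 1.06 (SE 0.25), and bcl6ab and BCL6 (ENSDARG00000070864), of a family of transcription repressors, by 1.23 (SE 0.34) and 0.98 (SE 0.28). The repressor prdm1b fell by 0.49 (SE 0.17). The prdm1b call was lost in 16 of 20 fits that each left out a library. Without unexercised replicate 1, 2, 3 or 4 or exercised replicate 4, 2 or 3 genes of the B cell list were called. The immunoglobulin gene ighm was not called, at -1.46 (SE 0.73), and the B cell receptor chain cd79a measured 0.206 ± 0.114 CPM in exercised and 0.361 ± 0.202 CPM in unexercised fish (SD, n = 5 each). cxcl8b.1, a chemokine that attracts neutrophils, measured 2.16, 2.26, 1.25, 0.99 and 1.46 CPM in exercised fish, against 20.3, 10, 7.32, 4.9 and 3.23 CPM in unexercised fish, and fell by 2.49 (SE 0.72, edgeR adjusted p = 0.0251), a call lost without unexercised replicate 1 or exercised replicate 3 or 4. csf1b, a ligand of the receptor that macrophages and pigment cells depend on, measured 58.3, 102, 62.2, 123 and 49.1 CPM in exercised fish, against 33.6, 26.3, 24.2, 31.6 and 40.9 CPM in unexercised fish, highest in exercised replicates 4 and 2, and rose by 1.33 (SE 0.24, edgeR adjusted p = 0.00182). Of 65 inflammatory genes 7 rose and 5 fell, against 7.37% and 8.15% of all genes.

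Clock genes changed in both directions. NR1D1, a repressor of the clock activator gene, measured 17.4, 13.2, 23.4, 12.6 and 18.7 CPM in exercised fish, against 56.1, 75.6, 126, 146 and 36.1 CPM in unexercised fish, and fell by 2.36 (SE 0.37, edgeR adjusted p = 0.000941). Its unexercised values spread widely, from replicate 5 to replicate 4, while the exercised ones did not. cry3b, a cryptochrome of the repressor arm, measured 63.7, 61.6, 50.4, 97.7 and 59.5 CPM in exercised fish, against 25.6, 20.3, 23.5, 16.4 and 35 CPM in unexercised fish, and rose by 1.46 (SE 0.21, edgeR adjusted p = 0.00068). BMAL1 (ENSDARG00000006791), an activator of the clock, measured 16.6, 7.17, 9.34, 6.2 and 6.41 CPM in exercised fish, against 13.9, 13.5, 24.2, 22.7 and 23.7 CPM in unexercised fish, with exercised replicate 1 inside the unexercised range, and fell by 1.1 (SE 0.23, edgeR adjusted p = 0.00488).

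CLOCK (ENSDARG00000003631), its partner, fell by 0.64 (SE 0.12), and PER1 (ENSDARG00000012499), a period repressor, by 0.79 (SE 0.17). The repressor nfil3-5, of the clock output factors, measured 22.7, 10.8, 14.7, 12.4 and 22 CPM in exercised fish, against 31.3, 24.4, 88.8, 93.6 and 50.6 CPM in unexercised fish, with unexercised replicates 1 and 2 far below replicates 3 and 4, and fell by 1.8 (SE 0.36, edgeR adjusted p = 0.00325). The photolyase gene cry5, which light induces, measured 43.9, 51.8, 53, 41.6 and 47.3 CPM in exercised fish, against 19.3, 17.7, 29, 28.4 and 39.4 CPM in unexercised fish, with no overlap, and rose by 0.83 (SE 0.21, edgeR adjusted p = 0.0145). Of 11 clock nuclear receptors 4 fell and none rose, and of 22 periods, cryptochromes and other repressors 4 rose and 3 fell. Of 6 activators 2 fell, and of 10 output factors 1 rose and 3 fell. Of 25 genes of photolyases and light-induced DNA repair 3 rose and 3 fell, with a median of -0.04 and 15 negative values. Among all genes 7.37% rose and 8.15% fell, and in lists this short a few calls make up each share. Without exercised replicate 2 or 4, 2 of the nuclear receptors fell. These genes cycle over the day, and the labels do not give the hour at which each fish was sampled, so its part in these differences was not tested.

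Liver-type transcripts were highest in exercised replicates 1, 2 and 3, and exercised replicates 4 and 5 lay nearer to the unexercised libraries. apoa2, an apolipoprotein of hepatocytes, measured 323, 513, 1091, 62 and 65.3 CPM in exercised fish, against 20.8, 24.6, 25.3, 25.6 and 31.5 CPM in unexercised fish, so that replicates 4 and 5 were also above every unexercised library. The lipid carrier fabp10a, a defining hepatocyte gene, measured 135, 381, 541, 22 and 40.5 CPM in exercised fish, against 12.6, 12.8, 29.3, 16.8 and 17.8 CPM in unexercised fish, so that exercised replicate 4 fell within the unexercised range. FGB, a fibrinogen chain secreted by the liver, measured 45.8, 87.8, 186, 13.9 and 19.4 CPM in exercised fish, against 7.58 to 13.4 CPM in unexercised fish. Of 53 hepatocyte genes tested 40 rose and none fell, against 7.37% and 8.15% of all genes, with a median of 2.83. In 14 of the 53 all 5 exercised libraries lay above all unexercised ones, against 5.79% of all genes. Scores were 3.95, 4.52, 5.41, 2.64 and 2.75 in exercised libraries, against 2.09 to 2.61 in unexercised ones. With only exercised replicates 4 and 5 kept, none of the 53 was called and the median was 0.68. Exercised replicates 1, 2 and 3 were left out there for their high scores, so this loss follows from the choice of libraries. The source of these transcripts was not tested.

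Other genes with large rises were also high in exercised replicates 1, 2 and 3. PKLR, the pyruvate kinase of liver and red cells, measured 21.4, 32, 64.6, 2.81 and 2.64 CPM in exercised fish, against 1.17, 1.48, 2.1, 1.29 and 1.52 CPM in unexercised fish, and ldhbb, a lactate dehydrogenase, 11.4, 26, 71.5, 4.12 and 2.78 CPM in exercised fish, against 1.3, 1.45, 1.3, 1.18 and 2.35 CPM in unexercised fish. UCP1, a mitochondrial uncoupling protein, measured 45.1, 71.7, 117, 10.13 and 9.87 CPM in exercised fish, against 4.58, 6.92, 5.79, 7.61 and 6.52 CPM in unexercised fish, and pnp4b, a purine nucleoside phosphorylase, 31, 37.7, 86.9, 4.26 and 6.34 CPM in exercised fish, against 1.52, 2.13, 2.41, 2.54 and 2.63 CPM in unexercised fish. They rose by 4.03 (SE 0.77), 3.93 (SE 0.76), 3.01 (SE 0.72) and 3.88 (SE 0.82), and none of the 4 was called with only exercised replicates 4 and 5 or with the hepatocyte score as a covariate. The libraries left out were those in which these 4 genes were highest, so that loss follows from the choice. The hepatocyte score did not overlap between groups and was highest in the same libraries, so as a covariate it can take up these rises as well. The complement and antimicrobial list had 10 of 38 genes higher, against 7.37% of all genes. It had 3 with the hepatocyte covariate or with only exercised replicates 4 and 5. Its count was 2 to 5 without unexercised replicate 1, 2, 3 or 5 or exercised replicate 2 or 3. CYP7A1, which starts bile acid synthesis from cholesterol, went the other way at 94.7, 47.4, 123, 38.6 and 13.6 CPM in exercised fish, against 548, 317, 611, 1053 and 209.8 CPM in unexercised fish, a fall of 3.11 (SE 0.58, edgeR adjusted p = 0.00226).

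**Figure D3:**
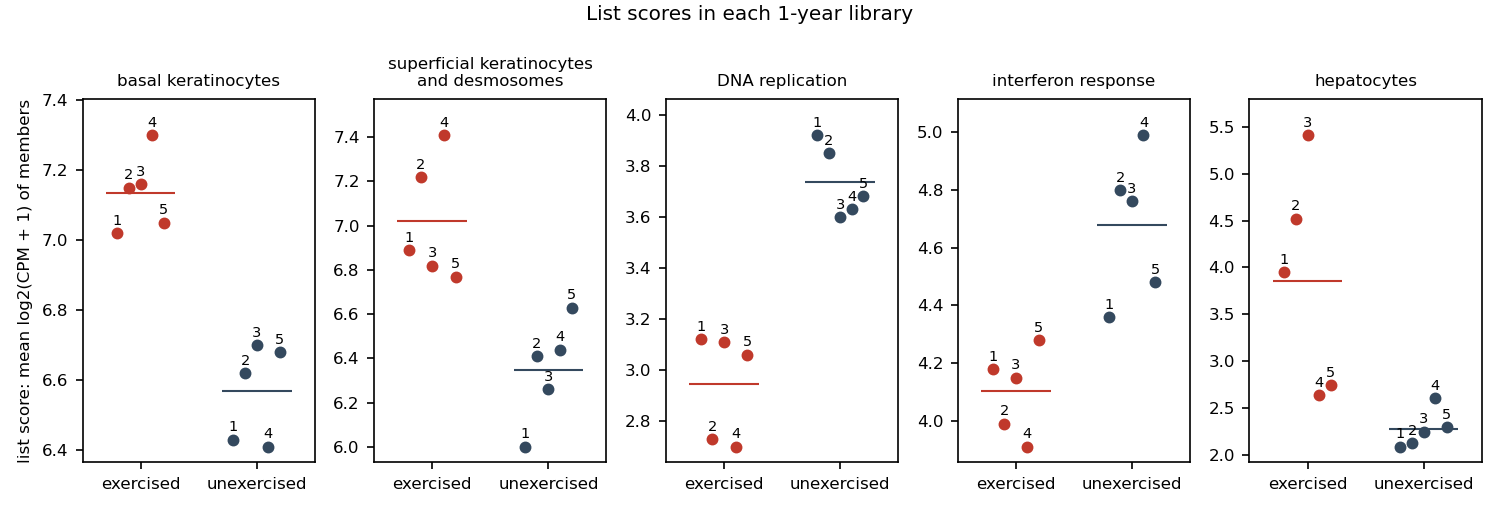
Scores of 5 gene lists in each 1-year library, each score being the mean log2 of CPM plus 1 over the members tested, with exercised libraries (red) left of unexercised ones (dark), replicate numbers above the points and lines at the group means. Groups do not overlap in any panel, with hepatocyte scores of 2.64 and 2.75 in exercised replicates 4 and 5 just above the highest unexercised score of 2.61. Exercised replicate 4 has the highest score for both keratinocyte lists and the lowest for DNA replication and the interferon response, while exercised replicate 3 is highest for hepatocytes.

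Targets of the hypoxia-inducible factors rose in part. ANKRD37, a small protein induced by low oxygen, measured 3.3, 9.53, 5.67, 9.17 and 11 CPM in exercised fish, against 0.542, 0.463, 0.182, 0.348 and 1.78 CPM in unexercised fish, with unexercised replicate 5 the nearest to the exercised range, and rose by 3.53 (SE 0.56, edgeR adjusted p = 0.000951). EGLN3, the prolyl hydroxylase that marks the factors for degradation, measured 6.86, 16.3, 9.73, 10.7 and 9.69 CPM in exercised fish, against 3.28, 4.08, 3.56, 3.94 and 2.99 CPM in unexercised fish, with no overlap, and rose by 1.58 (SE 0.24, edgeR adjusted p = 0.000861). The glucose transporter SLC2A1 (ENSDARG00000007412) rose by 0.97 (SE 0.20). Both genes named EPAS1, which encode an oxygen-regulated subunit of the factors, rose, ENSDARG00000008697 by 1.15 (SE 0.32) and ENSDARG00000057671 by 0.77 (SE 0.23). Both calls were lost without unexercised replicate 2 or 4 or exercised replicate 2 or 4, and that of ENSDARG00000057671 also without unexercised replicate 1 or exercised replicate 5 (highest adjusted p = 0.0549 and 0.0744). Of 55 genes in the list 12 rose and 2 fell, against 7.37% and 8.15% of all genes. In the list 5 rose with only exercised replicates 4 and 5 or without exercised replicate 2. Without unexercised replicate 1, 2, 3 or 4 or exercised replicate 2 or 4, 5 to 9 genes were called, against 14. With plain library totals 5 rose and 4 fell.

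Growth and nutrient signalling genes also moved in both directions. DEPTOR, an inhibitor of mTOR, measured 186, 271, 273, 281 and 174 CPM in exercised fish, against 62.4, 74.4, 61.1, 52.8 and 130 CPM in unexercised fish, with unexercised replicate 5 well above the rest of its group, and rose by 1.64 (SE 0.28, edgeR adjusted p = 0.00141). IGF1R (ENSDARG00000034434), a receptor for insulin-like growth factors, measured 12.8, 27.27, 21.9, 37.2 and 29.2 CPM in exercised fish, against 11.4, 12.5, 11.4, 9.22 and 8.42 CPM in unexercised fish, with exercised replicate 1 just above the unexercised range, and rose by 1.28 (SE 0.23, edgeR adjusted p = 0.00205). gsk3bb, a kinase that insulin signalling inhibits, measured 7.27, 29.5, 11.8, 36.4 and 11.2 CPM in exercised fish, against 2.11, 2.5, 4.57, 4.37 and 4.82 CPM in unexercised fish, highest in exercised replicates 4 and 2, and rose by 2.38 (SE 0.44, edgeR adjusted p = 0.00211). The forkhead factor foxo3a, which insulin signalling also restrains, measured 5.11, 4.49, 5.25, 3.83 and 4.95 CPM in exercised fish, against 12.3, 11.2, 8.1, 13.6 and 11.5 CPM in unexercised fish, and fell by 1.26 (SE 0.17, edgeR adjusted p = 0.000577), while FOXO1 (ENSDARG00000099555), a related factor, rose by 0.93 (SE 0.18). Of 75 genes of insulin, mTOR and FoxO signalling 18 rose and 8 fell, against 7.37% and 8.15% of all genes. With only exercised replicates 4 and 5 kept, 10 of the list rose and 3 fell. Without exercised replicate 2 or 4 the number called was 15 or 17, against 26, and with plain library totals 12 rose and 13 fell.

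Some mitochondrial genes rose, most of them by small amounts. MFN2, a mitofusin that joins mitochondria, measured 108, 132, 103, 134 and 86.2 CPM in exercised fish, against 44.5, 52.2, 56.3, 47.4 and 62.2 CPM in unexercised fish, with no overlap, and its rise of 1.1 (SE 0.14, edgeR adjusted p = 0.000475) had one of the lowest p-values of all genes. SDHA, a subunit of respiratory complex II, measured 385, 416, 363, 419.8 and 387 CPM in exercised fish, against 252, 256, 267, 243 and 345 CPM in unexercised fish, and rose by 0.53 (SE 0.10, edgeR adjusted p = 0.0022). MT-CO1, encoded by the mitochondrial genome, measured 40428, 42492, 39009, 35974 and 36684 CPM in exercised fish, against 24264, 27144, 26759, 23059 and 35491 CPM in unexercised fish, with unexercised replicate 5 just below the exercised range, and rose by 0.51 (SE 0.14, edgeR adjusted p = 0.0231), a call lost without unexercised replicate 1 or 4 or exercised replicate 2. NRF1, a transcription factor of mitochondrial biogenesis, fell by 0.47 (SE 0.11). Of 13 mitochondrially encoded genes 5 rose and all 13 log2 fold changes were positive, from 0.26 to 0.56. Of 93 nuclear-encoded subunits 8 rose and none fell, a share near the 7.37% of all genes that rose, with 88 positive values and a median of 0.31.

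These counts depended on the library and the scaling. With plain library totals 0 mitochondrially encoded and 1 nuclear-encoded gene rose, and the same numbers with only exercised replicates 4 and 5. The nuclear-encoded count was 2 without unexercised replicate 3 or 4 or exercised replicate 2 and 38 without unexercised replicate 5, and 26 without unexercised replicates 1 and 5. In fatty acid oxidation and uncoupling 11 of 55 genes rose and 2 fell, against 7.37% and 8.15% of all genes. The carnitine transferase CPT1A, which admits fatty acids to mitochondria, measured 23, 18.3, 30.2, 20.6 and 19.4 CPM in exercised fish, against 34.4, 35.4, 34.9, 34.6 and 32.4 CPM in unexercised fish, and fell by 0.62 (SE 0.13, edgeR adjusted p = 0.00346). With only exercised replicates 4 and 5 kept, 2 genes of that list rose and 3 fell, and 6 were called in all without unexercised replicate 1 or 4 or exercised replicate 2. None of 83 cytosolic ribosomal protein genes was called by edgeR, with 9 under an unadjusted p of 0.05, and by limma voom 0 and by DESeq2 4 of them were. None of 55 proteasome genes was called by edgeR, with 5 under an unadjusted p of 0.05, and by limma voom 0 and by DESeq2 2 of them were.

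The glucocorticoid receptor gene fell, and genes of its list changed in both directions. NR3C1, the receptor for cortisol, measured 75.6, 33.2, 68.8, 29.3 and 78.3 CPM in exercised fish, against 117, 108, 145, 145 and 114 CPM in unexercised fish, lowest in exercised replicates 4 and 2, and fell by 1.14 (SE 0.23, edgeR adjusted p = 0.00294). ZBTB16, a transcription factor that glucocorticoids induce, measured 348, 544, 460.5, 529 and 368 CPM in exercised fish, against 67.4, 86.5, 50.5, 59.24 and 66.2 CPM in unexercised fish, at several times the unexercised level in every exercised library, and rose by 2.77 (SE 0.44, edgeR adjusted p = 0.000941). hsd20b2, a steroid dehydrogenase of cortisol breakdown in zebrafish, measured 6.91, 17.6, 6.67, 14.3 and 9.08 CPM in exercised fish, against 1.81, 1.2, 3.01, 1.96 and 4.72 CPM in unexercised fish, and rose by 2.1 (SE 0.41, edgeR adjusted p = 0.0028). Of 36 genes in the list 5 rose and 4 fell, against 7.37% and 8.15% of all genes, with a median of 0.05, and 5 were called in all without unexercised replicate 4 or exercised replicate 2. NFE2L2, the transcription factor of the antioxidant response, measured 165, 218, 172, 261 and 196 CPM in exercised fish, against 103, 113, 100.4, 122 and 151 CPM in unexercised fish, without overlap, and rose by 0.78 (SE 0.14, edgeR adjusted p = 0.00144). Of 50 antioxidant genes 5 rose and none fell, against the same 7.37% and 8.15%, and 2 rose without unexercised replicate 1 or 2 or exercised replicate 2.

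Among markers of other tissues and cell types in the skin samples, a few genes rose. None of 39 fast skeletal muscle genes was called by edgeR, DESeq2 or limma voom, and 0 had an unadjusted p below 0.05. Their scores were 6.11 to 7.21 in exercised and 5.57 to 6.75 in unexercised libraries. Of 24 genes of slow and smooth muscle 4 rose and none fell, against 7.37% and 8.15% of all genes, with a median of 0.43 and 23 positive values. CNN1, a calponin of smooth muscle, measured 1.75, 4.24, 1.86, 3.07 and 2.42 CPM in exercised fish, against 0.677, 0.154, 0.389, 0.456 and 1.04 CPM in unexercised fish, without overlap, and rose by 2.28 (SE 0.45, edgeR adjusted p = 0.00301). The other 3 were LMOD1 (ENSDARG00000077261), TAGLN (ENSDARG00000033466) and tpm3, by 0.81 (SE 0.19), 0.46 (SE 0.11) and 0.47 (SE 0.13), and the groups overlapped in TAGLN. The tpm3 call was lost without unexercised replicate 4 or exercised replicate 2 or 4. In the list 1 gene rose with only exercised replicates 4 and 5, and 2 did with plain library totals or the hepatocyte score as a covariate. Its scores were 5.24 to 5.58 in exercised and 4.58 to 5.31 in unexercised libraries. None of 20 erythrocyte genes was called by edgeR, with 5 under an unadjusted p of 0.05, and by limma voom 1 and by DESeq2 4 of them were. Without unexercised replicate 5, 6 of them rose. Their scores were 3.83 to 4.51 in exercised and 2.85 to 4.13 in unexercised libraries. The exocrine pancreas gene prss1 measured 4.68, 24.1, 1.62, 5.45 and 28.7 CPM in exercised fish, against 11.4, 0.957, 1.32, 1.18 and 3.51 CPM in unexercised fish, with high values in both groups. None of 22 genes of exocrine pancreas and gut was called by edgeR, with 4 under an unadjusted p of 0.05, and by limma voom 0 and by DESeq2 1 of them were. Without unexercised replicate 1, 5 of them rose. Of 39 endothelial genes 6 rose and none fell, against 7.37% and 8.15% of all genes. The 6 include stab1, a scavenger receptor, by 1.03 (SE 0.25), and the receptor KDR, through which vascular growth factors act, by 0.59 (SE 0.17). The KDR call was lost without unexercised replicate 2 or 4 or exercised replicate 2 or 4. With only exercised replicates 4 and 5 none of the endothelial genes was called, and 2 were without unexercised replicate 2 or exercised replicate 4. Of 29 genes of Schwann cells and nerve 2 rose, a share near the 7.37% of all genes. Most log2 fold changes in these lists were positive, called or not. They were so in 26 of the 29 nerve genes, 35 of 39 in fast muscle, 32 of 39 in endothelium, 16 of 20 in erythrocytes and 14 of 22 in exocrine pancreas and gut. Among all 20788 genes 10643 were positive. The myelin gene mbpa, which did not pass, was highest in exercised replicate 2 at 133 CPM, against 32.9 to 54.6 CPM in the other 9 libraries.

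**Figure D4:**
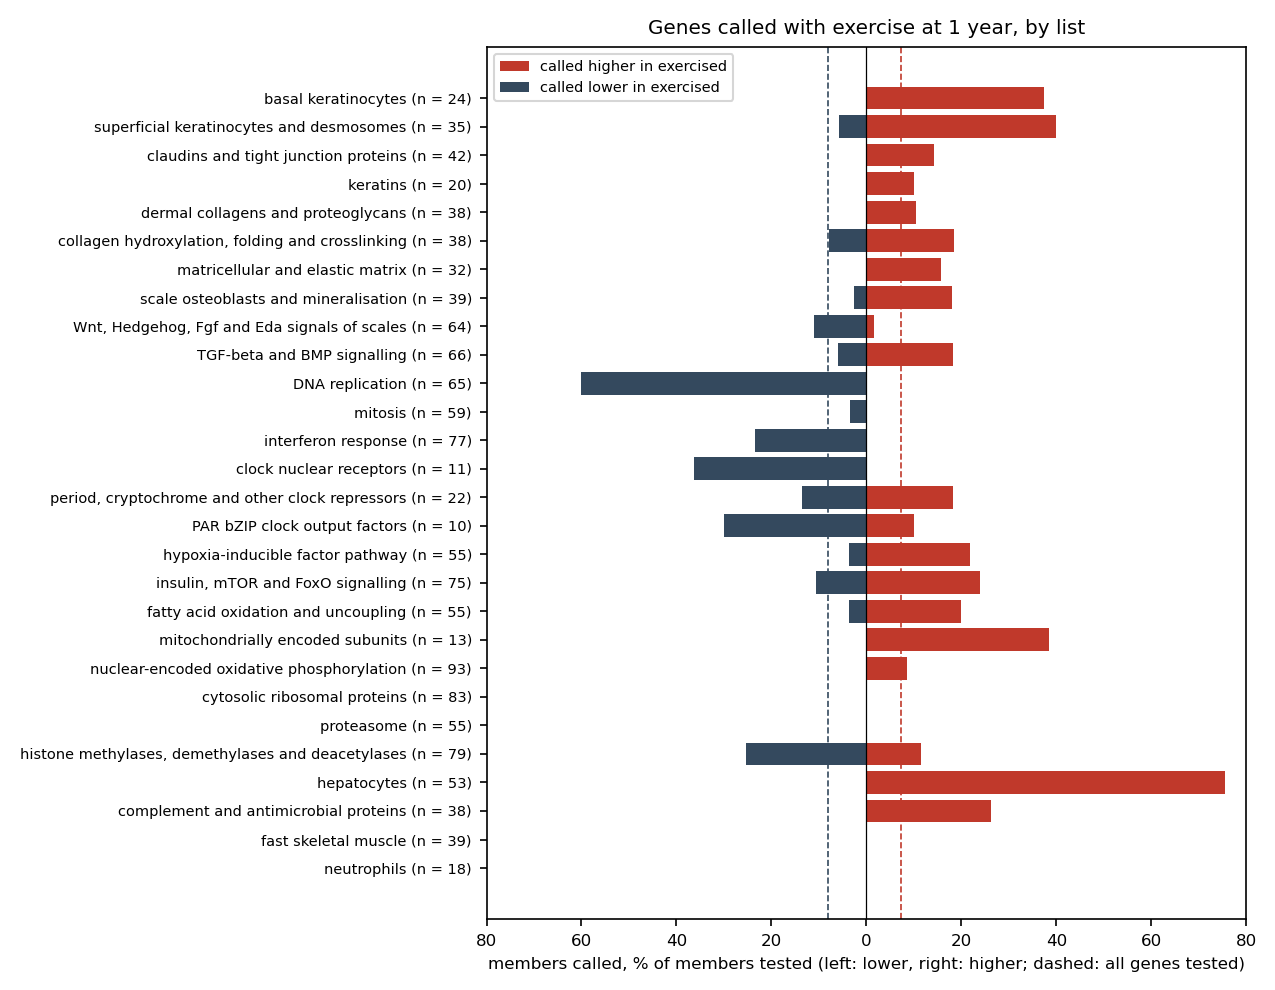
Share of the tested members of 28 gene lists that were called higher (red, right) or lower (dark, left) in exercised 1-year fish by edgeR's quasi-likelihood test, with the number tested in brackets. Dashed lines mark the share of all genes tested that was called in each direction, 7.37% higher and 8.15% lower. Hepatocyte genes have the longest bar to the right (40 of 53) and DNA replication genes the longest to the left (39 of 65).

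Genes outside the lists were among the best separated. The lowest adjusted p, 0.000475, was shared by several genes. map3k4, a kinase of stress signalling, measured 32, 27.5, 30.9, 28.3 and 31.1 CPM in exercised fish, against 67.2, 71.2, 60, 62.4 and 49.5 CPM in unexercised fish, and fell by 1.05 (SE 0.12). DAB2, an endocytic adaptor, measured 69.8, 128, 86.3, 161 and 90.9 CPM in exercised fish, against 20.7, 18, 26.4, 19.2 and 39 CPM in unexercised fish, and rose by 2.12 (SE 0.25). ZBTB7C, a zinc finger protein, measured 92.9, 169.5, 129.8, 187 and 134 CPM in exercised fish, against 31, 39.5, 25.7, 27.8 and 28.5 CPM in unexercised fish, and rose by 2.22 (SE 0.28). In all 3 the groups did not overlap, and the calls held with only exercised replicates 4 and 5 and with surrogate variables.

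At 3 years, where other fish were used for both groups, 275 genes were called (1.32%), 167 of them higher (0.803%) and 108 lower (0.52%). Of the 3227 genes called at 1 year, 2620 (81.2%) had the same sign at 3 years, and all 147 genes called at both ages did. The share with the same sign among all genes tested was not computed, so the 81.2% has no background here. lamb3 rose at 3 years by 1.77 (SE 0.39, edgeR adjusted p = 0.0352), DSP (ENSDARG00000022309) by 1.43 (SE 0.29, edgeR adjusted p = 0.0276) and dsc2l by 1.99 (SE 0.40, edgeR adjusted p = 0.0271). The median of the basal keratinocyte list was 0.42 at 1 year and 0.29 at 3 years, and 9 and 3 of 24 genes rose. The desmosome list had 14 higher and 2 lower at 1 year and 6 higher and 0 lower at 3 years.

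Clock genes varied at 3 years. NR1D1 fell, with a log2 fold change of -2.4 (SE 0.38, edgeR adjusted p = 0.0118), and cry3b rose by 1.14 (SE 0.21, edgeR adjusted p = 0.0168). The values of BMAL1 (ENSDARG00000006791), nfil3-5 and cry5 at 3 years were -0.02 (SE 0.23, edgeR adjusted p = 0.974), -0.14 (SE 0.35, edgeR adjusted p = 0.865) and -0.75 (SE 0.22, edgeR adjusted p = 0.0787), none of them called. The sign of cry5 was thus opposite to that at 1 year. For these 5 genes the unadjusted p of the difference between ages was 0.944, 0.281, 0.00382, 0.00347 and 5.34e-05 in that order, and none passed after adjustment by edgeR. Of the clock nuclear receptors 2 fell at 3 years, and of the output factors 3, against 0.52% of all genes.

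The DNA replication, interferon and hepatocyte lists had no member called by edgeR at 3 years. The median of the DNA replication list was -0.86 at 1 year and 0.05 at 3 years, with 39 and 0 genes lower, and 1 with an unadjusted p below 0.05 at 3 years. That of the interferon list was -0.62 and -0.04, with 18 and 0 lower, and 4 with an unadjusted p below 0.05. That of the hepatocyte list was 2.83 and -0.69, with 40 and 0 higher, and 1 with an unadjusted p below 0.05. Of these 3 lists DESeq2 called 0, 0 and 1 gene at 3 years and limma voom 0 in each. MCM2 had a log2 fold change of -0.14 (SE 0.32) at 3 years and UHRF1 of 0.18 (SE 0.31).

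The difference between the ages was tested itself and passed in 1 of 20788 genes by edgeR (0.00481%). That gene, ENSDARG00000104886, for which no symbol is given, had a log2 fold change of -1.19 (SE 0.19) at 1 year and 0.62 (SE 0.19) at 3 years, and an adjusted p of the difference of 0.0383. At an unadjusted p below 0.05 the difference passed in 2783 genes (13.4%), a larger share than that cutoff alone would give. Among genes named above the unadjusted p was 0.00029 for UHRF1, 0.000884 for MCM2, 4.83e-05 for EGLN3, 3.26e-05 for kdm6bb and 7.63e-05 for apoa2, none of which passed after adjustment by edgeR. These genes were picked for their low values, and other named genes had higher ones, such as tgm5l at 0.204. DESeq2 called the difference in 498 genes and limma voom in 3. No gene of any list is therefore shown to respond differently at 1 year by edgeR. Nor do these tests show that the response was the same at both ages.

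**Figure D5:**
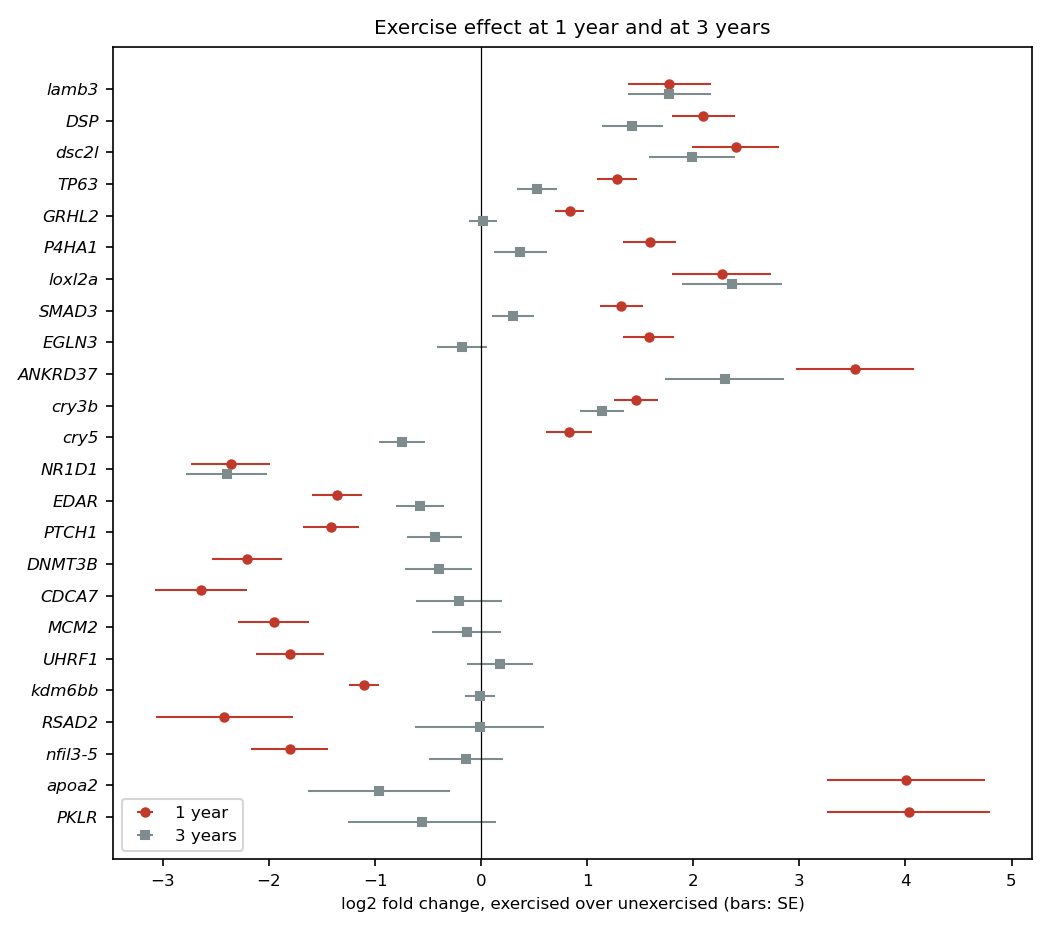
Log2 fold change of exercised over unexercised fish for 24 genes at 1 year (red circles, 5 against 5 libraries) and at 3 years (grey squares, 5 against 5 other libraries), with bars of 1 SE either side. Epidermal genes such as lamb3, DSP and dsc2l lie right of zero at both ages, while MCM2, UHRF1 and RSAD2 lie left of zero at 1 year and near zero at 3 years. None of the 24 differences between ages passed edgeR's test after adjustment over all genes.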

How the data were processed

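RNA was sequenced from skin of male zebrafish in 20 libraries, 5 for each age and condition, with the TruSeq RNA kit, which does not mark strand. Per the submitters' processing notes, the tools named are featureCounts 1.4.6-p4, STAR 2.4.1d and bcl2fastq 1.8.4, with the build GRCz10, and the authors deposited raw counts for 32105 genes. The deposited RPKM values were not used. Symbols came from an ID table and matched 26269 genes. edgeR 4.0.16 (R 4.3.3) fitted 4 group means over 20 libraries after its filter on low counts and TMM scaling, with robust quasi-likelihood tests, 16 residual degrees of freedom and Benjamini-Hochberg adjustment at 0.05. Each SE of a log2 fold change was derived from that test, as the size of the change divided by the square root of its F statistic. The coefficient of variation between libraries of a group, from edgeR's common dispersion, was 34.7%, and may in part be technical. The steps were also run on simulated counts drawn gene by gene. Those counts lack the shifts shared by many genes of a library, so that run does not bear on them. Pairs of 1-year replicates differed by at least 44.6 in chi-square per degree of freedom, so no pair agreed within sampling noise. Members and the 61 gene lists were chosen with earlier results of these data known. Genes were named as the 10 highest and 10 lowest log2 fold changes of called genes that had a symbol of their own and whose larger group mean reached 5 CPM, the 10 lowest p-values of genes with such a symbol, and in each list up to 4 called members of lowest p or, with none called, the member of lowest p. Members named beyond these were chosen after their values were seen. DESeq2 1.42.0, limma 3.58.1 and sva 3.50.0 served as alternatives. Some genes are not reported here.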

Additional observations from a re-analysis of the deposited data

Results flagged for a closer look

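In groups of 5 libraries, 1 library stood apart from its group in 16 of 302 groups looked at (5.3%), where chance gives about 5%. The value in each case is the gap to the nearest library divided by the range of the group, with a critical value of 0.71. Among exercised libraries, replicate 4 was high in GRHL2 (0.79), replicate 5 high in POSTN (ENSDARG00000104267; 0.73), replicate 1 low in LUM (0.858) and replicate 2 low in bmp7a (0.746) and pkp1a (0.811). Among unexercised libraries, replicate 5 was high in ITGB4 (0.831), LOX (0.884), SDHA (0.732) and LMOD1 (ENSDARG00000077261; 0.728), low in DNMT3B (0.866) and prdm1b (0.776), and high on the first principal component (0.863). Unexercised replicate 1 was low in col17a1b (0.732) and FOXO1 (ENSDARG00000099555; 0.745). Unexercised replicate 3 was low in col1a1a (0.9) and high in c3a.5 (0.806).

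The exercise effect differed between ages in ENSDARG00000104886, a gene for which no symbol is given, with an edgeR adjusted p of 0.0383 for the difference. It measured 1.64 ± 0.325 CPM in exercised and 3.74 ± 0.743 CPM in unexercised fish at 1 year (SD, n = 5 each). The log2 fold change was -1.19 (SE 0.19) at 1 year and 0.62 (SE 0.19) at 3 years.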

How the results depend on the processing

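No paired analysis was possible because replicates were numbered by accession order, which ties no sample to another. Against 3227 genes called, 1532 higher and 1695 lower, the hepatocyte score as a covariate left 1778, 817 and 961. That score did not overlap between the 1-year groups, so it can take up part of their difference. With 6 surrogate variables 154 were called, 77 in each direction. Without exercised replicates 1, 2 and 3, chosen for their high hepatocyte scores, the counts were 1270, 616 and 654. Without unexercised replicates 1 and 5 they were 2066, 927 and 1139. Plain library totals gave 800 higher and 3666 lower. With 1 library left out at a time, 1909 to 3534 genes were called, 897 to 1645 higher and 1012 to 1889 lower. The lowest counts were without exercised replicate 2, then 2016 without exercised replicate 4 and 2109 without unexercised replicate 1. The difference between ages, 1 gene by edgeR, was called in 2 genes under RLE scaling, the muscle covariate or surrogate variables. It was called in 0 under plain totals, no filter, a stricter filter, the hepatocyte covariate or without 2 unexercised libraries, in 4 without 3 exercised libraries, in 498 by DESeq2, in 3 by limma voom and in 0 to 39 with 1 library left out. Of 135 called genes followed singly none reversed under the alternatives run, and 105 stayed called in all 20 fits without a library. Surrogate variables ended 113 of the 135 calls, leaving out 3 exercised libraries 62 and the hepatocyte covariate 43. The cause was not tested.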
